A study of Mus musculus with 2 samples.

Results

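The zinc finger gene bodies described here are the transcribed regions of autosomal protein-coding mouse genes whose symbol is Zfp followed by digits, read at 1 kb or more from the gene start. Annotation of the mm9 (NCBIM37) genome build gave 336 such genes on 19 autosomes, under 332 symbols, of 21409 protein-coding genes compared. They held 8754 of the 1790826 CpGs in the deposited table. Of these, 4882 lay outside CCGG and TCGA, and all values below are for these unless stated. CCGG and TCGA are recognition sequences of restriction enzymes common in this kind of assay, but the enzymes used for these libraries are not given in the sources used here. Within 1 kb of the starts of the same genes, CpGs outside these sequences had medians of 0.54% in Dnmt1+/+ and 0% in Dnmt1-/- (4401 CpGs), whereas those inside them had medians of 55.2% and 53.1% (1184 CpGs). The CpGs inside CCGG and TCGA are therefore given only as an alternative. Methylation was measured by reduced-representation bisulfite sequencing, which reads single CpGs in DNA fragments cut by restriction enzymes, in mouse embryonic fibroblasts (MEFs). The Dnmt1+/+ and the Dnmt1-/- cells were each represented by 1 library. Both cell lines also lack trp53, and the Dnmt1-/- cells are, per the study's methods, homozygous for a hypomorphic allele of Dnmt1 rather than free of the enzyme. With 1 library per genotype, nothing below separates the genotype from the line or the library, and Fisher tests compare the libraries.

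Most Zfp genes encode proteins that bind DNA through tandem C2H2 fingers, short loops in which 2 cysteines and 2 histidines hold a zinc ion. Many also carry a KRAB box, the domain that recruits the corepressor Trim28 and the H3K9 methyltransferase Setdb1 and so silences transposable elements and imprinted loci. The genes often stand in clusters that arose by local duplication, and the whole array of fingers is commonly coded by a single long last exon. A C2H2 pattern was found in the translated sequence of 320 of the 336 members, with a median of 10 fingers per member and a maximum of 36 in Zfp142. A KRAB box pattern was found in 177 members. In 269 members the last exon was also the exon with the most coding sequence. The last exon had a median length of 2186 bp in the members and 956 bp in the other protein-coding genes. Methylated CpGs are copied after replication by Dnmt1, which acts on hemimethylated DNA.

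The stretches below are shown because they hold the extremes among the last exons. The last exons of Zfp316 and Zfp697 were more methylated in Dnmt1-/- than in Dnmt1+/+, those of Zfp161 and Zfp775 had the highest levels in Dnmt1-/-, and those of Zfp688 and Zfp180 the lowest, among members with at least 10 measured CpGs and 80% or more in Dnmt1+/+. Each is the 150 bp of the coding part of the last exon with the most measured CpGs, read from NCBIM37 on the coding strand, 5′ to 3′. Capitals mark the measured CpGs, and a CG in lower case was either in CCGG or TCGA or not in the table.
Zfp316: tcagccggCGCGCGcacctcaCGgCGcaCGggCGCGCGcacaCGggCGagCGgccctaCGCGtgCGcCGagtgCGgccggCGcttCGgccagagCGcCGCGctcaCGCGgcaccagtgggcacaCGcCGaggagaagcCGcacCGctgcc
Zfp697: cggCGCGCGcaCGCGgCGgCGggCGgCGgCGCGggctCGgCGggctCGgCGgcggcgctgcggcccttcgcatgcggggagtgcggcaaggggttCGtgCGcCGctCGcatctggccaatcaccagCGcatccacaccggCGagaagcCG
Zfp161: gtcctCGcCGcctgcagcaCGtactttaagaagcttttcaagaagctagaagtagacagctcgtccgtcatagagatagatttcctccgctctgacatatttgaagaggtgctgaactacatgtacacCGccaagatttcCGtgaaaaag
Zfp775: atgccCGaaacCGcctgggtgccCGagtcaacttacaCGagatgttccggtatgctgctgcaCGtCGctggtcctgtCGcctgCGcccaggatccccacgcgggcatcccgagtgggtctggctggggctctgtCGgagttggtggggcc
Zfp688: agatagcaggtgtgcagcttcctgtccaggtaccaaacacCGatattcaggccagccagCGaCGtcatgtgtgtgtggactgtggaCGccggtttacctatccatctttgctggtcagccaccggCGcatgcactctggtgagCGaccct
Zfp180: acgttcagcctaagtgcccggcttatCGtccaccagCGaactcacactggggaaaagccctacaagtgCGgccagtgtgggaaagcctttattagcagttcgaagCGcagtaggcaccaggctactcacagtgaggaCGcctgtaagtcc
The Zfp316 stretch lies at chr5:144015391-144015540 on the minus strand, the Zfp697 stretch at chr3:98231906-98232055 on the plus strand and the Zfp161 stretch at chr17:69736805-69736954 on the plus strand. The others lie at chr6:48569821-48569970 (Zfp775, plus strand), chr7:134562841-134562990 (Zfp688, minus strand) and chr7:24890992-24891141 (Zfp180, plus strand). The mean over the 28 measured CpGs of the Zfp316 stretch was 20.2% in Dnmt1+/+ and 50.8% in Dnmt1-/-. In the Zfp697 stretch the mean over 22 CpGs was 28.4% and 62.3%. The densest stretches of both genes were therefore partly methylated in Dnmt1+/+ and more methylated in Dnmt1-/-, with 27 and 12 of their CpGs higher by Fisher's exact test after Benjamini-Hochberg adjustment over all CpGs of the table, and 0 lower. The Zfp161 stretch fell from 100% to 75.7% over 5 CpGs and the Zfp775 stretch from 94.2% to 81.9% over 9 CpGs. The Zfp688 stretch fell from 97.8% to 30.4% over 6 CpGs and the Zfp180 stretch from 92.8% to 34.2% over 5 CpGs. Within the Zfp180 stretch the 5 CpGs, in the order printed, read 66.7%, 55.0%, 37.9%, 3.85% and 7.69% in Dnmt1-/-, so that neighbours in one exon differed widely. Finger-coding sequence holds 4 of these 5 CpGs, 2 of the 6 of the Zfp688 stretch, and 0 in the Zfp161 and Zfp775 stretches. In the Zfp316 and Zfp697 stretches it holds 19 and 9 CpGs.

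Across all Zfp gene bodies the mean over CpGs was 64.9% in Dnmt1+/+ and 33.8% in Dnmt1-/-. Other protein-coding gene bodies, read in the same way over 347297 CpGs, had the same Dnmt1+/+ mean of 64.9% and a Dnmt1-/- mean of 24.9%. The Dnmt1-/- means were closer with CpGs in CCGG and TCGA included, at 46.3% in Zfp bodies and 41.9% in the others. With all calls pooled, the Zfp value was 55.3% (95% Wilson interval 55.1 to 55.5) and 31.4% (31.2 to 31.6), over 198814 and 216905 calls. Intervals of this kind cover counting error only, since reads without molecular identifiers can be PCR copies. Member CpGs had a median depth of 30 calls (Dnmt1+/+) and 31 calls (Dnmt1-/-), and at these depths 0 methylated calls allow up to 10% and 9.68% (3 calls).

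By Fisher's exact test 2533 member CpGs (51.9%) were lower and 151 (3.09%) higher in Dnmt1-/-. Among all CpGs of the table outside CCGG and TCGA, 44.2% were lower and 0.635% higher, and among those in other protein-coding gene bodies 60.7% were lower and 0.865% higher. The share that fell thus lay between these backgrounds. The higher CpGs were concentrated, since 133 of the 134 in last exons belonged to Zfp316 and Zfp697, and 18 higher CpGs were left in all Zfp bodies without these genes.

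The last exons, which carry most of the finger sequence, held 1523 of the CpGs. Their mean was 69.6% in Dnmt1+/+ and 45.5% in Dnmt1-/-. The rest of the bodies held 3359 CpGs, with means of 62.7% and 28.4%. In other protein-coding genes the last exon had means of 60.7% and 27.3%, and the rest 65.4% and 24.7%. In Dnmt1-/- the Zfp last exons were therefore 17.1 points above the rest of the same bodies, while in Dnmt1+/+ they were already 6.93 points above it.

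This difference depended on which CpGs were compared. At 1 kb or more from every annotated transcript start, rather than from the gene start alone, the last exons were 8.07 points above the rest in Dnmt1-/- but below it in Dnmt1+/+, with a difference of -12.0 points. With CpGs in CCGG and TCGA included, the last exons were 9.57 points above the rest in Dnmt1-/- and 1.98 points above it in Dnmt1+/+. In other protein-coding genes the order in Dnmt1-/- turned when these CpGs were included, to 39.7% in the last exon and 42.1% in the rest. Without Zfp316 and Zfp697, a choice made after seeing the data, the Zfp last exons were 13.8 points above the rest in Dnmt1-/- and 13.0 points above it in Dnmt1+/+. The rest of the bodies held 1006 CpGs at 20% or less in Dnmt1+/+, against 311 in the last exons. When only CpGs at 80% or more in Dnmt1+/+ were taken, also chosen after seeing the data, the parts started level, at 96.5% in the last exons (957 CpGs) and 95.7% in the rest (1906 CpGs). In Dnmt1-/- they then stood at 55.3% and 43.8%, a difference of 11.5 points. This difference was 11.1 points without Zfp316 and Zfp697, and 6.54 points with CpGs in CCGG and TCGA included, where the parts stood at 61.8% and 55.3%.

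The same selection in other protein-coding genes gave 41.6% in last exons and 36.6% in the rest of the body, and 52.2% and 51.9% with CpGs in CCGG and TCGA included. Among Zfp last exon CpGs that were methylated in Dnmt1+/+, 20.6% were still at 80% or more in Dnmt1-/- and 13.5% had fallen to 20% or less. In the rest of Zfp bodies these shares were 14.1% and 27.1%. In the last exons of other genes they were 11.1% and 28.5%. The highest values were thus more frequent, and the lowest less frequent, in the Zfp last exons than in these other sets. No test was made, since CpGs of a region are not replicates.

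**Figure D1:**
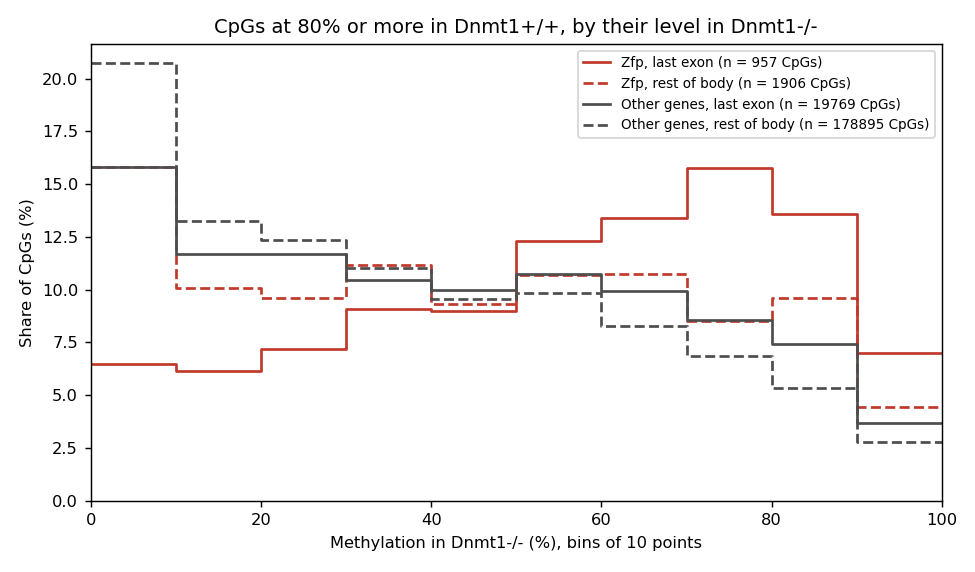
Share of CpGs (%) in each 10-point bin of methylation in Dnmt1-/-, for CpGs at 80% or more in Dnmt1+/+, in last exons (solid) and the rest of gene bodies (dashed) of Zfp genes (red) and other protein-coding genes (grey). The fullest bin of Zfp last exons is 70 to 80%, with 15.8% of their CpGs, whereas the other sets peak in the lowest bin.

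Other families built on C2H2 fingers were set beside the members. In Zbtb genes, whose proteins join a BTB dimerization domain to fingers, CpGs at 80% or more in Dnmt1+/+ stood at 51% in last exons and 39.2% in the rest in Dnmt1-/-. In Zscan and Zkscan genes, which carry a SCAN domain, the values were 51% and 43.9% over 76 and 96 CpGs. All genes outside the Zfp symbols with at least 3 finger patterns gave 52.8% and 39.1%. The last exons of all 3 sets lay between the 41.6% of other protein-coding genes at large and the 55.3% of Zfp genes, nearer to the latter. Their shares at 80% or more in Dnmt1-/- were 18.2%, 22.4% and 17.6%, and at 20% or less 16.3%, 18.4% and 13.7%, so that the highest values were more frequent in Zscan and Zkscan last exons than in those of Zfp genes.

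CpG density, taken as the number of CpGs in a window of 201 bp, differed between these sets. Its median over CpGs at 80% or more in Dnmt1+/+ was 10 in Zfp last exons, 7 in the rest of Zfp bodies and 8 in the last exons of other genes, and the last of these were denser than the rest of Zfp bodies but not higher in Dnmt1-/-. Among Zfp last exon CpGs at 80% or more in Dnmt1+/+, the Dnmt1-/- mean was 34.8% where the window held 1 to 4 CpGs (61 CpGs), 47.6% for 5 to 9 (347 CpGs) and 62.4% for 10 or more (549 CpGs). In the rest of Zfp bodies the values were 35.9%, 41.0% and 57.6%. Denser sequence kept more methylation in both parts. Within each range the parts lay closer together than the 11.5 points between them over all densities, and in the lowest range the rest was the higher. The ranges are wide, so density was not equal within them. In the last exons of other genes the values were 32.2%, 38.7% and 48.3%, so that the Zfp last exons were the higher in each of the 3 ranges. The part of density in the difference between last exon and rest was not tested.

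Within the last exon, sequence that codes for fingers was compared with the remaining coding sequence and with the untranslated end. The 610 finger-coding CpGs had means of 74.6% in Dnmt1+/+ and 53.3% in Dnmt1-/-. The 771 other coding CpGs had means of 64.0% and 40.6%, and the 142 untranslated CpGs 79.3% and 38.6%. Among CpGs at 80% or more in Dnmt1+/+ the Dnmt1-/- means were 59.2%, 54.4% and 43.4%. Finger-coding sequence in exons before the last was similar, at 58.7% over 157 CpGs, and introns stood at 39.5% over 1302 CpGs. Untranslated sequence before the last exon held 2 CpGs of this class and is left aside. Finger-coding sequence was thus the highest of these elements whether or not it lay in the last exon. The elements also differed in CpG density. Over all their CpGs the median per window was 14, 13 and 7 in finger-coding, other coding and untranslated last-exon sequence. It was 11 in finger-coding sequence of earlier exons and 7 in introns. The part of density in this order was not tested. In the other genes with at least 3 fingers, last-exon finger-coding CpGs of the same class stood at 57.9%, other coding at 54.7% and untranslated at 37.1%. The order of these 3 parts of the last exon was the same in both gene sets. Finger-coding sequence before the last exon stood at 50% in those genes, below their other last-exon coding sequence.

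**Figure D2:**
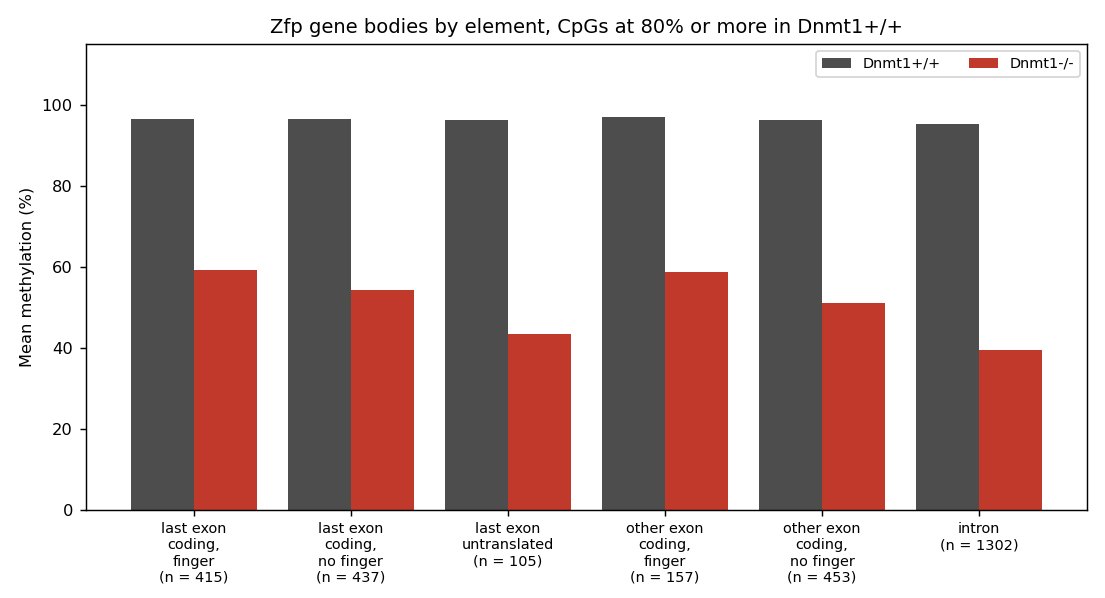
Mean methylation (%) of Zfp gene body CpGs at 80% or more in Dnmt1+/+, by element, in the Dnmt1+/+ (grey) and Dnmt1-/- (red) libraries; n is the number of CpGs. The grey bars are level because of the selection, and the Dnmt1-/- bars range from 59.2% in finger-coding sequence of the last exon to 39.5% in introns. Untranslated sequence of other exons, with 2 CpGs, is not drawn. CpG density differed between the elements and was not adjusted for.

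Finger sequence repeats from loop to loop, and its CpGs recur at the same codons. Counted from the first cysteine as codon 1, codon 19 held 106 of the 779 finger CpGs (13.6%) and codon 4 held 79 (10.1%). Codon 4 is the second cysteine, and all of its CpGs arose where TGC met a G. At codon 19, between the histidines, 53.8% of the CpGs lay in the codon CGC, which codes for arginine. Mean methylation in Dnmt1-/- was 50.6% at codon 19 and 57.9% at codon 4. Over the 17 codons with at least 20 CpGs it ranged from 45.0% at codon 13 to 66.5% at codon 9, with Dnmt1+/+ means between 67% and 86.7%. These values include Zfp316 and Zfp697.

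Members differed widely among themselves. Of the 336 genes, 278 held a measured CpG of any kind, 254 held one outside CCGG and TCGA, 141 held one in the last exon, and 82 held at least 5 there. The median of these 82 last exons was 96.3% in Dnmt1+/+ and 55.0% in Dnmt1-/-. Over all 2229 protein-coding genes with at least 5 such CpGs, the medians were 91.0% and 32.1%. Of the 82, 73 were at 80% or more in Dnmt1+/+, 5 lay between 20% and 80%, and 4 were at 20% or less. Among the 73, 46 (63.0%) were at 50% or more in Dnmt1-/-, against 38.1% of all protein-coding genes with a last exon at 80% or more. The quartiles of the 73 were 42.7% and 65.1%, and their range ran from 3.55% to 81.7%.

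**Figure D3:**
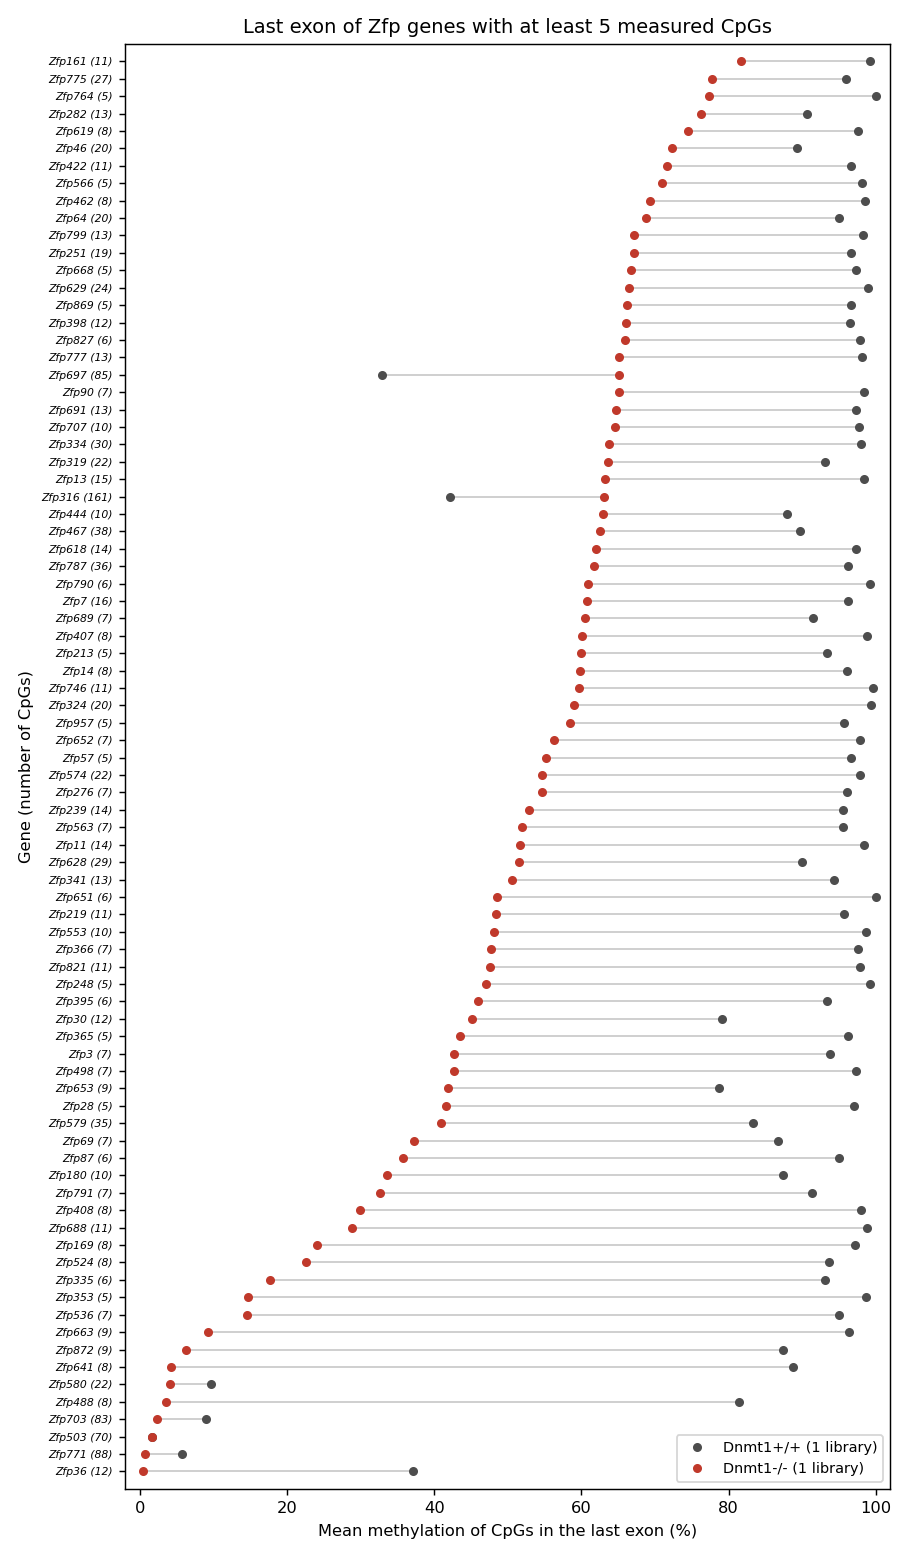
Mean methylation (%) of the last exon in Dnmt1+/+ (grey) and Dnmt1-/- (red) for the 82 Zfp genes with at least 5 measured CpGs there, ordered by the Dnmt1-/- value, with the number of CpGs in brackets. Most grey points crowd at the right while red points spread up to 81.7%, and for Zfp316 and Zfp697 the red point lies to the right of the grey one.

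Among the 34 members with at least 10 last-exon CpGs and 80% or more in Dnmt1+/+, Zfp161, on chr17, had the highest last exon in Dnmt1-/-, at 81.7% ± 8.86 (SD over 11 CpGs) after 99.2% in Dnmt1+/+. The rest of its body was low in comparison, at 12.2% and 1.01% over 19 CpGs. Zfp775 read 96.0% and 77.7% over 27 CpGs, and Zfp282 90.7% and 76.2% over 13. Zfp46 read 89.3% and 72.3% over 20 CpGs and Zfp422 96.7% and 71.7% over 11. The last exon of Zfp282 fell by 14.4 points and that of Zfp422 fell by 25 points, with the other 3 between them.

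Among the same 34 members, Zfp688 was the lowest in Dnmt1-/-, at 28.9% ± 20.2 (SD over 11 CpGs) after 98.8%. Zfp180 read 87.4% and 33.6% over 10 CpGs, and Zfp579 83.3% and 40.9% over 35. Zfp821 and Zfp553 followed, at 47.5% and 48.1% in Dnmt1-/- from 97.9% and 98.7%. The median of all protein-coding genes with at least 5 last-exon CpGs and 80% or more in Dnmt1+/+ was 43.3% in Dnmt1-/-, so that Zfp688, Zfp180 and Zfp579 lay below it and Zfp821 and Zfp553 above it. Lower values occurred in members with fewer CpGs, where 7 of the 73 methylated last exons fell to 20% or less, against 17% of all protein-coding genes of this class. Zfp488, Zfp641 and Zfp872, named after their values were seen, fell to 3.55%, 4.29% and 6.27% over 8, 8 and 9 CpGs.

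Several neighbouring genes on chromosome 6 had high last exons. Between Zfp398 and Zfp775, at chr6:47785660-48573226, the 8 members included 6 with at least 5 last-exon CpGs, which lay between 59.7% and 77.7% in Dnmt1-/-. Zfp212, inside the interval, was lower at 34.1%, on 4 CpGs. Over the 118 last-exon CpGs of these members the means were 94.2% and 67%. The rest of their bodies was not high throughout, since in Zfp777 it read 11.9% and 4.65% over 56 CpGs. The interval was picked after its values were seen and was not tested. It leaves out the neighbouring Zfp786, whose last exon read 91.7% and 23.2% on 1 CpG.

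Zfp316 and Zfp697 were the members with at least 5 last-exon CpGs whose last exon was higher in Dnmt1-/- by 10 points or more, 2 of 82, against 2.38% of all protein-coding genes. Zfp316 (chr5:144011376-144031701, minus strand) encodes a KRAB zinc finger protein with 14 finger patterns. Its last exon went from 42.1% ± 27.6 to 63.0% ± 16.8 (SD over 161 CpGs), and 80 of these CpGs were higher and 10 lower by Fisher's exact test. Zfp697 (chr3:98186404-98235871, plus strand) holds 11 finger patterns. Its last exon went from 32.9% ± 18.7 to 65.1% ± 20.5 (SD over 85 CpGs), with 53 CpGs higher and 0 lower. The rest of the Zfp697 body fell from 98.9% to 62.3% over 13 CpGs, so that its parts stood far apart in Dnmt1+/+ and 2.84 points apart in Dnmt1-/-.

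Along the Zfp316 last exon the direction changed. In the first 500 bp the mean was 85.5% in Dnmt1+/+ and 76.7% in Dnmt1-/-, over 12 CpGs. From 1500 to 1999 bp it was 22.0% and 54.0% over 64 CpGs, 54 of them in finger-coding sequence, and 53 were higher by Fisher's exact test. The rise thus lay in the part that was low in Dnmt1+/+, and the Dnmt1-/- values were more even along the exon. In Zfp697 the first 500 bp read 20.7% and 61.0%, and the stretch from 1000 to 1499 bp 53.3% and 76.6%. Neighbouring CpGs were read on the same fragments and are not independent. Of the CpGs in all member bodies 309 had a 51-bp window that matched elsewhere in the genome, 27 of them in last exons, and leaving these out kept all 151 higher calls.

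**Figure D4:**
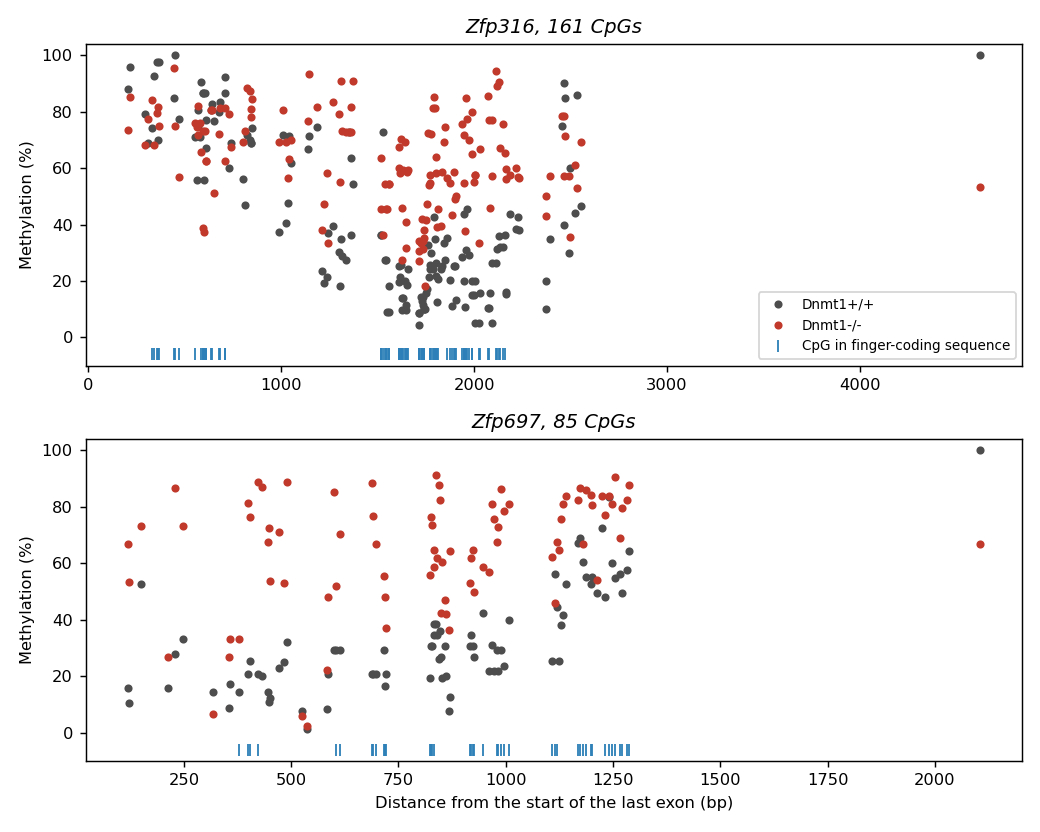
Methylation (%) of each CpG against its distance (bp) from the start of the last exon of Zfp316 (top, 161 CpGs) and Zfp697 (bottom, 85 CpGs) in Dnmt1+/+ (grey) and Dnmt1-/- (red); blue ticks mark CpGs in finger-coding sequence. In Zfp316 the red points rise above the grey ones mostly from about 1000 bp onwards, and in Zfp697 along most of the exon.

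Zfp423, a regulator of preadipocyte commitment, also met the rule for a rise, but on 4 last-exon CpGs that read 27.8% and 41.2%. The rest of its body fell from 70.6% to 20.7% over 228 CpGs, of which 174 were lower.

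Gene by gene, the last exon was compared with the rest of the same body in the 38 members with at least 5 CpGs in each. In Dnmt1-/- the last exon was higher by 10 points or more in 24 and lower by as much in 3, and the median difference was 22.1 points. Over all 1466 protein-coding genes the last exon was higher in 46% and lower in 13.7%, with a median of 7.91 points. In Dnmt1+/+ the last exon was already higher in 18 members and lower in 1, with a median of 7.04 points, against 41.7% and 16.2% of all genes and a median of 6.13 points. When only CpGs at 80% or more in Dnmt1+/+ were used, 26 members could be compared. The last exon was then higher in 13 and lower in 4, with a median of 9.92 points, and over all 862 genes it was higher in 44% and lower in 14.4%, with a median of 7.22 points. The members' counts in this class were near the background.

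**Figure D5:**
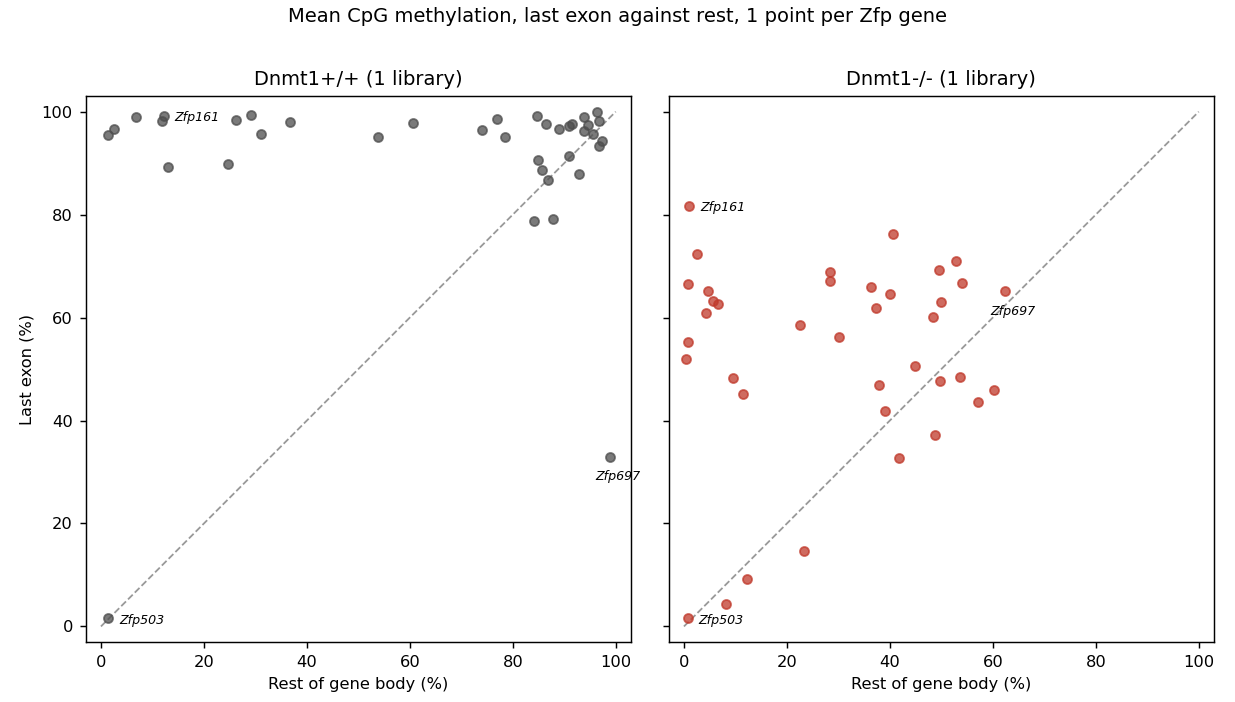
Mean methylation (%) of the last exon against the rest of the gene body for 38 Zfp genes with at least 5 CpGs in each part, in Dnmt1+/+ (left) and Dnmt1-/- (right); the dashed line marks equal values. Most points lie above the line in both libraries, and Zfp697 moves from far below it to just above it.

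The largest differences came from genes whose rest was low in both libraries. After Zfp161, with 80.7 points in Dnmt1-/-, these were Zfp46 (69.8 points), Zfp629 (65.7), Zfp777 (60.5) and Zfp13 (57.5). In Zfp629, with 19 finger patterns, the last exon read 99% and 66.5% over 24 CpGs and the rest 6.77% and 0.76% over 11. The same 5 genes differed by 72.2 to 92.2 points in Dnmt1+/+, so that the gap was present in Dnmt1+/+ and narrower in Dnmt1-/-.

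At the other end of the 17 members with at least 10 CpGs in the last exon and 5 in the rest, Zfp503 was unmethylated throughout. Its last exon read 1.61% and 1.62% over 70 CpGs, and no C2H2 pattern as defined here was found in its protein. Zfp697 followed with 2.84 points and Zfp341 with 5.61 points. In Zfp341 the last exon fell from 94.4% to 50.5% and the rest from 97.3% to 44.9%. Zfp444 and Zfp707 differed by 13.0 and 24.6 points in Dnmt1-/-, with last exons at 63.0% and 64.5%. In these genes both parts were methylated in Dnmt1+/+ apart from Zfp503 and the Zfp697 last exon.

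Protein class was examined next. Last exons of the 177 members with a KRAB box pattern had means of 78.8% and 54.4% (528 CpGs in 64 genes). Those of the 159 members without a match had 64.8% and 40.8% (995 CpGs in 77 genes). A box missed by the short pattern would fall in this second group. Zfp316 supplied 161 of the 528 CpGs, at 42.1% and 63.0%. Without Zfp316 and Zfp697, left out after seeing the data, the Dnmt1-/- means were 50.6% with the pattern and 38.6% without. Among CpGs at 80% or more in Dnmt1+/+ the Dnmt1-/- means were 53.8% with the pattern and 56.2% without. The order thus turned once CpGs below 80% in Dnmt1+/+ were left out. In the rest of the bodies the same class read 34.0% with the pattern and 45.7% without. By number of finger patterns, the methylated last exon CpGs stood at 44.9% for 1 to 4 fingers, 56.5% for 5 to 9, 57.1% for 10 to 14 and 56.6% for 15 or more. The last exons of the 6 measured members without a finger pattern read 13.9% and 4.66% over 177 CpGs, most of them in Zfp703 (83 CpGs, at 9.05% and 2.36%) and Zfp503 (70 CpGs). Zfp36 read 37.1% and 0.37% over 12 CpGs. The other 3 members, on 5, 5 and 2 CpGs, were methylated in Dnmt1+/+, and Zfp365 and Zfp957 among them read 96.3% and 95.7% there against 43.6% and 58.5% in Dnmt1-/-. These genes were named after their values were seen.

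Members with another member start within 100 kb numbered 175. Their last exons read 71.3% and 47.5%, and those of the other 161 members 67.8% and 43.4%. Among methylated CpGs the Dnmt1-/- means were 55.0% and 55.6%. Clustered and single members therefore differed little in what their methylated last exons kept.

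Of 12 members with well-known roles, 10 held a measured CpG and 5 held one in the last exon. Zfp57, which keeps methylation at imprinted loci, read 96.6% and 55.2% over 5 last-exon CpGs and 2.61% and 0.76% in the rest. Zfp462, a chromatin regulator in pluripotent cells, read 98.5% and 69.3% over 8. Zfp335, a coregulator, and Zfp143, a promoter-bound activator, were low in Dnmt1-/-, at 17.6% over 6 CpGs and 16.7% over 3, after 93.1% and 95.6%. The fifth was Zfp423, described above, and the others were read in the rest of the body only. Zfp809, which silences retroviral sequence, fell there from 92.9% to 31.3% over 8 CpGs, and Zfp568, a KRAB repressor of a placental Igf2 transcript, from 80.5% to 13.4% over 6. Zfp148 read 44.9% and 18.0% over 40 CpGs, Zfp91 28.3% and 9.44% over 17, and Zfp217 22.2% and 4.80% over 93. Zfp445 and Zfp281 held no measured CpG.

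The genes through which KRAB zinc finger proteins act were read in the same way over their whole bodies. Of 17 listed, 15 held at least 5 CpGs, and all 15 were lower by 10 points or more in Dnmt1-/-, with medians of 90.4% and 30.7%. Over all protein-coding genes with at least 5 CpGs 93.2% were lower by as much. By Fisher's exact test 249 of the 426 CpGs in the 15 listed genes were lower and 5 were higher, against 60.7% and 0.865% of CpGs in other protein-coding gene bodies, so that these genes were near the background. Setdb1 fell from 92.3% to 28.8% over 7 CpGs and Dnmt1 itself from 94.3% to 28.7% over 39. Daxx, a histone chaperone, fell the furthest of the 15, from 92.6% to 0.74% over 22 CpGs. Hdac2, a histone deacetylase, had the highest level of the 15 in Dnmt1-/-, at 54.4% against 97.1% in Dnmt1+/+ over 8 CpGs. Dnmt3a, a de novo methyltransferase, was mostly unmethylated in both libraries, at 27% and 15% over 135 CpGs.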

How the data were processed

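Genomic DNA of Dnmt1+/+ and Dnmt1-/- MEFs was read by reduced-representation bisulfite sequencing, 1 library each, grouped by the genotype in the labels. The sequencing provider did quality control, read processing and mapping, and the submitters' processing notes name Bismark and mm9, without a version. The restriction enzymes and the bisulfite conversion rate are not given in the sources used here, and incomplete conversion would raise every methylation level, low ones the most. The authors' table gives the depth as a count of reads per CpG and the methylation as a percent, after the authors left out CpGs under 10 reads in either library. Methylated calls were computed here as depth times percent.

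Genes, exons and coding sequence came from GENCODE vM1 on NCBIM37. The last exon was that of the protein-coding transcript with the longest coding sequence, and a CpG in more than 1 member was counted once. C2H2 fingers were matched in translated transcripts as C, 2 to 4 residues, C, 12 residues, H, 3 to 5 residues and H, and KRAB boxes by a short sequence pattern. Each CpG was tested two-sided by Fisher's exact test, adjusted by Benjamini-Hochberg over every CpG in the table with a threshold of 0.05, and the procedure was tested on simulated data. The test compares libraries. Total calls were 74636195 in Dnmt1+/+ and 78401157 in Dnmt1-/-.

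Members and lists were chosen with earlier results of these data known. Named genes were, among members with at least 10 last-exon CpGs, the 5 with the largest and smallest last exon minus rest (at least 5 CpGs in the rest) and the 5 highest and lowest in Dnmt1-/- among those at 80% or more in Dnmt1+/+, plus those higher by 10 points and 12 genes with known roles. Alternatives covered depth, CCGG and TCGA sites, weighting, distance from starts, symbols, overlap, repeats and thresholds. One gene that the symbol rule would take is not reported here. Sequence was read with pysam 0.24.0, tests and intervals were run with scipy 1.17.1 under python 3.11.15, tables were handled with pandas 2.3.3 and numpy 2.4.6, repeats were searched with numba 0.67.0, and plots were drawn with matplotlib 3.10.9.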

Additional observations from a re-analysis of the deposited data

How the results depend on the processing

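No paired analysis was possible because the labels carry no replicate numbers and neither genotype was sequenced more than once. Values below are the mean in Dnmt1+/+ and then in Dnmt1-/-. Each moved by at least the distance from the middle to the edge of the 95% interval of its pooled calls, which is narrow. With CpGs in CCGG and TCGA included, Zfp bodies read 75.2% and 46.3%, last exons 76.7% and 53.4%, and the rest 74.7% and 43.8%. With a depth of at least 20 they read 58.6% and 32.8%, 65% and 45.0%, and 55.4% and 26.6%. With calls pooled they read 55.3% and 31.4%, 62.7% and 45.0%, and 51.8% and 24.8%. Over gene means, bodies read 80.8% and 34.5%, last exons 90.8% and 44.9%, and the rest 76.6% in Dnmt1+/+. Without CpGs above the 99th percentile of depth, bodies read 65.5% and 34.0%, last exons 70.6% in Dnmt1+/+, and the rest 63.2% and 28.7%. At 2 kb or more from the start the values were 70.0% and 37.2%, 72.7% and 48.1%, and 68.7% and 32.0%. At 1 kb or more from every annotated transcript start they were 75.6% and 39.0%, 68.1% and 44.0%, and 80.1% and 35.9%, so that the last exon was below the rest in Dnmt1+/+ and above it in Dnmt1-/-. With symbol suffixes allowed they were 63.1% and 32.1%, 66.0% and 42.6%, and 61.8% and 27.3%. Without CpGs in another protein-coding gene, bodies read 65.4% and the rest 63.5% in Dnmt1+/+. Without CpGs whose window is repeated, bodies read 63.7% and last exons 69.2% in Dnmt1+/+, and the rest 61.1% and 28.1%. With the exon holding most of the coding sequence in place of the last exon, the values were 74.0% and 48.3%, and 59.3% and 24.9% in the rest.

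Choices made after seeing the data also moved values. Among CpGs at 80% or more in Dnmt1+/+, last exons read 96.5% and 55.3% and the rest 95.7% and 43.8%, without Zfp316 and Zfp697 96.7% and 54.8%, and 95.6% and 43.7%, and with CCGG and TCGA included 96.5% and 61.8%, and 95.6% and 55.3%. Without Zfp316 and Zfp697 at all levels, last exons read 75.6% and 42.0%, finger-coding sequence 84.4% and 50.5%, other coding sequence 68.0% and 37.0%, and untranslated sequence 81.5% and 36.3%. The Dnmt1-/- last exon means were then 50.6% with a KRAB box pattern, 38.6% without one, 53.5% for 10 to 14 fingers, 43.5% in clusters and 40.6% outside them. The alternatives in the rest of this paragraph were planned. With CCGG and TCGA included, finger-coding sequence read 79.3% and 58.2%, other coding 72.6% and 50.4%, and untranslated 85.8% and 51.9%. The class means in Dnmt1-/- were then 60.6% with a KRAB box pattern, 49.1% without, 17.5%, 46.1%, 52.2%, 62.4% and 63.0% from 0 fingers to 15 or more, 55.1% in clusters and 51.6% outside. At a depth of at least 20, finger-coding sequence read 69.2% in Dnmt1+/+, other coding 58.4% and 39.0%, and untranslated 85.0% and 42.3%.

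Lower calls numbered 4376 of 8754 with CCGG and TCGA included (50% against 55.1% of CpGs in other protein-coding bodies) and 1611 of 3192 at a depth of at least 20 (50.5% against 59.5%), so that their share changed little. Higher calls numbered 18 of 4621 without Zfp316 and Zfp697 (0.39% against 0.865%). Genes with the last exon above the rest numbered 38 of 72 with CCGG and TCGA included (31.5% of all protein-coding genes), 37 of 60 with at least 3 CpGs in each part (43.5%), 11 of 14 with at least 10 (48.2%), and 13 of 26 among CpGs at 80% or more (44%). Genes with it below the rest numbered 6, 7 and 0 under the first 3 of these (20.5%, 16.8% and 9.23% of all genes), and with a difference of 25 points 17 of 38 were above and 0 below (22.6% and 3.27% of all genes). The last exon was above the rest in Dnmt1-/- under all 15 alternatives for that comparison, from 6.54 points (CpGs at 80% or more with CCGG and TCGA included) to 23.3 (exon with most coding sequence). In Dnmt1+/+ it was also above the rest, except at 1 kb or more from every transcript start (-12.0 points). Over gene means the difference was 16.3 points in Dnmt1-/- and 14.2 in Dnmt1+/+. With the exon holding most coding sequence it was 23.3 and 14.8. Depth limits single CpGs, and 59 members with 1 to 4 last-exon CpGs give no stable gene value.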
